A study of Mus musculus with 30 samples.

Results

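The genes examined were 9 effector genes of natural killer (NK) and other cytotoxic lymphocytes, taken by gene symbol from the expression tables of sorted LSK cells and of diseased bone marrow in a mouse RNA sequencing study. They are the receptor genes Ncr1, Klrd1 and Il2rb, the granule protein genes Gzma, Gzmb and Prf1, the granule membrane and transport genes Nkg7 and Sytl2, and the chemokine gene Ccl5. All 9 were among the 11271 genes of the marrow table, and 8 were among the 11740 genes of the LSK table; Sytl2 was not analysed in LSK cells. These 9 and 8 members all passed the filter on low values (a value of at least 1 in 6 marrow or 3 LSK libraries).

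Cytotoxic lymphocytes store perforin and granzymes in secretory granules and release them at the contact with a target cell. Perforin opens the target's membrane, and the granzymes, which are serine proteases, enter and start cell death. NK cells start this without prior sensitisation through activating receptors and need interleukin-15 to survive, while cytotoxic T cells use the same granules after recognition by the T cell receptor. In bone marrow these genes are known chiefly from mature lymphocytes, which are a minor part of its cells, while some are also used by immature lymphoid and myeloid cells.

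The study models myeloid neoplasms that follow cytotoxic therapy, and 24 of its 30 libraries are used here. All mice were C57BL/6. AML bone marrow (6 libraries) came from WT recipients of Egr1+/-, Apc del/+ marrow carrying a Trp53 shRNA, after AML had developed; by the labels, donor and recipient had ENU (the alkylating mutagen N-ethyl-N-nitrosourea) in 3 mice, the recipient alone in 1, and 2 had no ENU. MDS bone marrow (6 libraries) came from WT recipients of Egr1+/-, Apc del/+ marrow carrying a luciferase shRNA, with ENU to donor and recipient in all. Disease, shRNA and in part exposure therefore differ together between AML and MDS and cannot be told apart.

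LSK cells (Lin-, Sca1+, Kit+), the compartment of stem and early progenitor cells, were sorted in 4 groups of 3 libraries. Cells of transplanted mice were sorted about 2 months after transplant and before disease. EAP with ENU cells were of the Egr1+/-, Apc del/+, Trp53 shRNA genotype with ENU to donor and recipient. EAP cells were of that genotype with no ENU. Transplanted WT cells carried a luciferase shRNA in WT recipients, and WT cells came from mice with no transplant and no shRNA. One of the EAP libraries, EAP 1, is labelled by haploinsufficiency and shRNA as EAP but by transplant as WT marrow, so the differences of the members between EAP and the groups it was compared with are given with and without it. Transplanted marrow holds both transduced and other donor cells, and the labels do not say how many host cells remained, nor the age of the mice, nor whether an LSK library was 1 mouse or a pool.

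The values are the authors' normalised read values per gene. Values of 1 library summed to between 803657 and 1118594 in marrow and between 808377 and 1437201 in LSK cells, so they do not follow the plain scaling of CPM. Marrow values were whole multiples of 1 step per library, from which 17340069 to 21697805 reads per library were recovered; the LSK depth is unknown. Trp53, the target of the shRNA, was at 70.6 to 173 in EAP with ENU, 65.5 to 132 in EAP, 247 to 370 in transplanted WT and 213 to 349 in WT cells, and EAP 1 was lowest. In marrow it was at 23.0 to 58.0 in AML and 43.2 to 97.9 in MDS, and the groups overlapped. AML 3 stood apart, with a median correlation of 0.635 with the other marrow libraries against 0.844 to 0.970 for the rest. WT 2, transplanted WT 3 and EAP 1 stood apart among LSK libraries by their sums, at least 1130054 against at most 1034526. EAP 2 had the lowest LSK sum, 808377. Its median correlation with the other LSK libraries, 0.933, was below that of transplanted WT 3, 0.945. LSK defining genes (7 of 7 in the table) summed to 1728 to 2107 in EAP with ENU and 1777 to 2246 in EAP. In transplanted WT they summed to 2188 to 2305, and in WT cells to 2274 to 3253.

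The promoters shown are those of Gzma, Gzmb, Prf1, Nkg7 and Ncr1. They are all that the RefSeq promoter table used (GRCm38.p6) holds of the members, 5 of the 9, and were not picked by their levels. Each is given as 250 bases before to 50 bases after the start. Ncr1 has 2 entries there, of which the first is shown. Capitals mark the motifs that were searched on both strands: TGTGGTT for RUNX factors, TCACACC for T-box factors, AGGAAG for ETS factors and AGATAA for GATA factors.
Ncr1: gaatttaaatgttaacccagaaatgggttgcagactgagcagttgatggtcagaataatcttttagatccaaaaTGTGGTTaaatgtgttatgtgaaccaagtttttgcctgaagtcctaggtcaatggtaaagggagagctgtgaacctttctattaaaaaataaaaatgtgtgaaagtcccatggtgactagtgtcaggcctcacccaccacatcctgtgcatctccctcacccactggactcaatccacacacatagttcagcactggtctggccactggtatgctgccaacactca
Gzma: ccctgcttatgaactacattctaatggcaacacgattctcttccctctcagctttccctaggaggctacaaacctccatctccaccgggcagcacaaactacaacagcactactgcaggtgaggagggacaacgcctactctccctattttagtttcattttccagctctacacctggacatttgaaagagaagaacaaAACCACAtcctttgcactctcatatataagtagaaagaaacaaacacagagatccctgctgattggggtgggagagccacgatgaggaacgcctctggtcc
Gzmb: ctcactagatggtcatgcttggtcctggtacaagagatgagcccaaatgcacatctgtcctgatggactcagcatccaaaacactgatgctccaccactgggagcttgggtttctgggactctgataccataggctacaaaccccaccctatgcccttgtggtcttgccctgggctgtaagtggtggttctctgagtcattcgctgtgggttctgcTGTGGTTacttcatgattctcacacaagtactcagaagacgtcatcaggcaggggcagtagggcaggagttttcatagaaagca
Nkg7: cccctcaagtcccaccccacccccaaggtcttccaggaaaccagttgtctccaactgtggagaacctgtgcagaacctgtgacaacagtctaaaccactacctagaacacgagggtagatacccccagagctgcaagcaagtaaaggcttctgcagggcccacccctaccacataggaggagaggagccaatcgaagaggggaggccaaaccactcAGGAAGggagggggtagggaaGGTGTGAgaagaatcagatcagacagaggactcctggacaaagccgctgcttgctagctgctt
Prf1: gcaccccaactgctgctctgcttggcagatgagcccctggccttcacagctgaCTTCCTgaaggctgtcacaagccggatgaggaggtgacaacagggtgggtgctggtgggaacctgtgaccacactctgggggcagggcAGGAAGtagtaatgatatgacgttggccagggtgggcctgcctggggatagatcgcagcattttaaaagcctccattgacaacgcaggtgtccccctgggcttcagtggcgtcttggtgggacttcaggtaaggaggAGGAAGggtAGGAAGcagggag
The windows are on GRCm38.p6 at chr7:4337465-4337764 (Ncr1, plus strand), chr13:113100932-113101231 (Gzma, minus strand), chr14:56262285-56262584 (Gzmb, minus strand), chr7:43436888-43437187 (Nkg7, plus strand) and chr10:61297586-61297885 (Prf1, plus strand), and their starts lie 0 to 74 bases from those of GENCODE M21. The RUNX letters occurred once each in Ncr1, Gzma and Gzmb and in 5.27% of all 32851 promoters of the table. Nkg7 held the T-box letters, which 3.98% of promoters hold, and 1 ETS match. Prf1 held 4 ETS matches. At least 1 ETS match was in 35.4% of promoters, and the share with 4 was not counted. None of the 5 windows held the GATA letters, which 11.2% hold. A match is a description of the letters and not a binding site.

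In AML marrow, different effector genes were high in different mice. Gzma was highest in AML 4 and AML 5, Gzmb in AML 6, and Sytl2 in AML 3 and AML 5, while Il2rb and Ccl5 were highest in AML 1 and AML 4. The highest AML library was at 58.1 times the highest MDS library for Gzma, 31.4 times for Sytl2 and 30.6 times for Gzmb, whereas Prf1, Klrd1 and Nkg7 exceeded the highest MDS library in no AML mouse. Sytl2 was the 1 member of 9 that passed the test (higher in AML, limma adjusted p under 0.05), beside 3.2% of the 11269 genes tested in either direction and 0.994% in that direction. In bulk marrow, more cells of a type and more RNA per cell cannot be told apart, for these and all later values. The plot of member levels by marrow library shows the values.

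**Figure D1:**
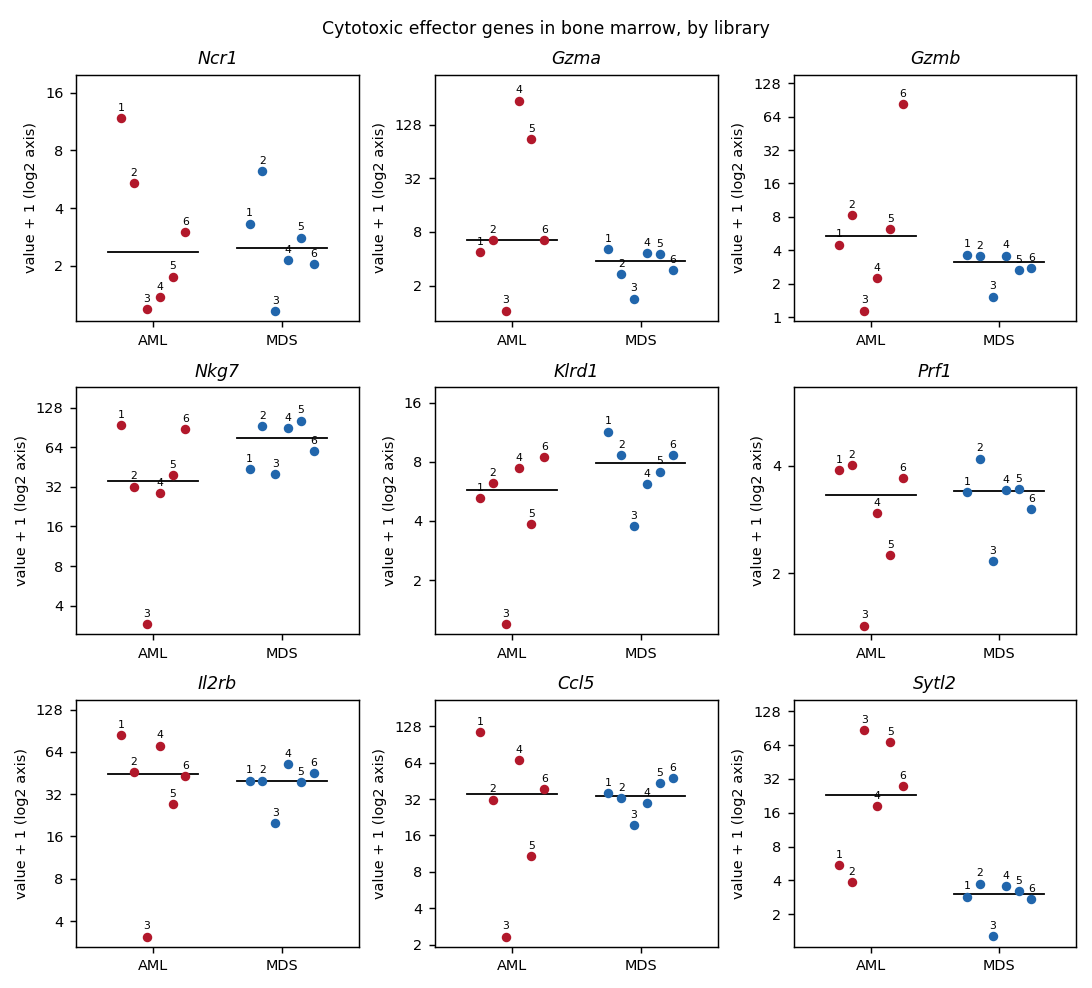
Levels of the 9 genes in 6 AML libraries (red) and 6 MDS libraries (blue), as value + 1 on a log2 axis; numbers are the libraries and lines the group medians. Gzma in AML 4 (237) and AML 5 (86.5), Gzmb in AML 6 (81.5) and Sytl2 in all 6 AML libraries lay above every MDS library.

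Gzma (chr13:113093825-113100981, minus strand), a granzyme with trypsin-like specificity, had 3.71, 5.53, 0.0478, 237, 86.5 and 5.52 in AML 1 to 6, against 4.08, 1.67, 0.424, 3.63, 3.52 and 1.98 in MDS 1 to 6. AML 4 and AML 5 stood far above all other mice, AML 2 and AML 6 were just above the highest MDS library, and AML 3 was below the lowest. These values rest on 4987 reads in AML 4, 1937 in AML 5 and 1 in AML 3, against 8 to 72 in MDS. With this spread the log2 difference was 1.97 ± 1.1 (SE, n = 6 each) with a limma adjusted p of 0.239, and 2.69 with an adjusted p of 0.111 without AML 3. In edgeR's quasi-likelihood test on the recovered reads the adjusted p was 0.0678, the lowest for Gzma among the alternatives.

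Gzmb (chr14:56258838-56262260, minus strand), the granzyme that cleaves after aspartate and activates caspases, had 3.50, 7.32, 0.143, 1.23, 5.18 and 81.5 in AML 1 to 6, against 2.66, 2.53, 0.530, 2.58, 1.65 and 1.78 in MDS 1 to 6. AML 6 alone was high, with 1758 reads, and 4 of the 6 AML libraries were above every MDS library. The log2 difference of 1.09 ± 0.8 did not pass (limma adjusted p = 0.369). Nor did Gzmb pass in edgeR's test on the recovered reads (adjusted p = 0.0971).

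Prf1 (chr10:61297833-61304680, plus strand), which encodes perforin, had 2.90, 3.01, 0.430, 1.95, 1.25 and 2.69 in AML 1 to 6, against 2.38, 3.19, 1.17, 2.42, 2.45 and 2.03 in MDS 1 to 6. The groups overlapped except for AML 3, which was lowest, and the log2 difference was -0.17 ± 0.28 (limma adjusted p = 0.705). Set against perforin within a library, Gzma had 122 reads per Prf1 read in AML 4 and 69.2 in AML 5, against 0.364 to 1.71 in MDS. Gzmb had 30.3 reads per Prf1 read in AML 6, against 0.455 to 1.12 in MDS. The granzyme reads of these 3 mice were thus not matched by perforin reads in the MDS ratio, and the ratio of Gzma to Gzmb reads was 192 in AML 4, 16.7 in AML 5 and 0.0677 in AML 6, against 0.660 to 2.13 in MDS.

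The libraries with high granzymes were also those with high T cell markers. Summed T cell markers (15 of 18 in the table) were 3123 in AML 4, 4894 in AML 5 and 976 in AML 6, against 108 to 224 in AML 1 to 3 and 73.7 to 188 in MDS. Other marker sums were also high in some of these mice. Plasmacytoid dendritic cell markers (6 of 6) were at 708, 272 and 432 in AML 4, 5 and 6, against 153 to 321 in MDS. Megakaryocyte and platelet markers (5 of 6) were at 28.5, 96.0 and 435 in AML 4, 5 and 6, against 44.0 to 74.9 in MDS. Neutrophil marker sums were low, at 14598, 24985 and 7620 in AML 4, 5 and 6, against 53880 to 86793 in MDS. They were also low in AML 2 (17210) and AML 3 (413). The part of any of these in the granzyme values was not tested. The defining genes differed among these 3 mice: Cd3e, a chain of the T cell receptor complex, was at 258 in AML 4 and 947 in AML 5 but at 5.52 in AML 6, against 4.98 to 12.1 in MDS, while Tcf7, a transcription factor of early and naive T cells, was at 1070, 1207 and 496 in AML 4, 5 and 6, against 13.0 to 22.1 in MDS. AML 6 also had 375 of Kit, the stem cell factor receptor, against 68.8 to 82.1 in MDS. NK cell markers other than members (Klrb1c, Klrk1, Eomes and Tbx21) summed to 24.7, 13.3 and 23.0 in AML 4, 5 and 6, inside the MDS range of 9.28 to 31.2.

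Sytl2 (chr7:90302252-90410719, plus strand), a Rab27-binding protein that helps dock secretory granules at the plasma membrane, had 4.42, 2.83, 85.6, 17.4, 66.8 and 26.7 in AML 1 to 6, against 1.87, 2.73, 0.265, 2.53, 2.19 and 1.73 in MDS 1 to 6. Every AML library lay above every MDS library, as did 1.71% of all genes tested, although AML 2 was only just above. The means were 34.0 ± 34.4 in AML and 1.88 ± 0.879 in MDS (SD, n = 6 each), and the log2 difference was 2.87 ± 0.72 with a limma adjusted p of 0.0499. In edgeR's quasi-likelihood test on the recovered reads, which called 3.98% of genes, it was 4.17 with an adjusted p of 0.044. The limma value lies at the threshold: the call held in 5 of 18 alternatives and was lost, among others, without AML 3 (2.44, adjusted p = 0.0631) and with the 3 AML mice whose ENU exposure matched MDS (2.79, adjusted p = 0.108), while the log2 difference stayed between 2.44 and 4.17 in all of them.

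Sytl2 did not follow the other members. AML 3, where Sytl2 was highest, was the lowest of the 12 libraries for 7 of the 9 members, all but Sytl2 and Ncr1. There Sytl2 had 1790 reads and Prf1 9, or 199 reads per Prf1 read, against 0.227 to 1.05 in MDS. The same library had a B cell marker sum (6 of 8 in the table) of 2042, against 45.8 to 91.5 in the other AML and 82.6 to 145 in MDS libraries. Its neutrophil marker sum was 413, against 53880 to 86793 in MDS. AML 4, 5 and 6, also high in Sytl2, were instead the libraries with high T cell marker sums. The part of these cell type markers in the Sytl2 values was not tested.

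Nkg7 (chr7:43437073-43438249, plus strand), a granule membrane protein needed for efficient release, had 92.8, 31.2, 1.91, 27.8, 38.1 and 87.5 in AML 1 to 6, against 42.4, 92.0, 39.1, 89.1, 101 and 58.8 in MDS 1 to 6. AML 2 to 5 lay below the lowest MDS library and AML 1 and 6 lay within the MDS range. The log2 difference was -1.11 ± 0.7 (limma adjusted p = 0.296), and -0.43 without AML 3.

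Among the receptors, Ncr1 (chr7:4337724-4345164, plus strand), the activating receptor most specific to NK cells, had 10.8, 4.40, 0.191, 0.380, 0.759 and 1.99 in AML 1 to 6, against 2.32, 5.21, 0.159, 1.15, 1.81 and 1.04 in MDS 1 to 6. AML 1 was highest and the groups otherwise overlapped (log2 difference 0.15 ± 0.57, limma adjusted p = 0.874; -0.26 without AML 1). In reads, AML 4 and AML 5, the mice with the most Gzma, had 8 and 17 Ncr1 reads, against 3 to 103 in MDS.

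Klrd1 (chr6:129591782-129598775, plus strand), the CD94 chain that pairs with NKG2 receptors, had 4.21, 5.26, 0.191, 6.46, 2.86 and 7.42 in AML 1 to 6, against 10.4, 7.68, 2.76, 5.16, 6.14 and 7.66 in MDS 1 to 6. AML 3 was the lowest library and the others overlapped, with a log2 difference of -0.65 ± 0.45 (limma adjusted p = 0.336).

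Il2rb (chr15:78479256-78495271, minus strand), the beta chain shared by the receptors of interleukin-2 and interleukin-15, had 83.2, 44.8, 2.10, 69.8, 26.2 and 41.8 in AML 1 to 6, against 38.9, 38.9, 18.8, 51.1, 38.2 and 44.2 in MDS 1 to 6. AML 1 and AML 4 were above every MDS library and AML 3 was below. The log2 difference was -0.26 ± 0.66 (limma adjusted p = 0.809), and it was 0.41 without AML 3, so that library sets its direction.

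Ccl5 (chr11:83525778-83530518, minus strand), a chemokine that memory T cells and NK cells store and secrete, had 114, 30.6, 1.34, 65.8, 9.82 and 37.4 in AML 1 to 6, against 34.9, 31.4, 18.6, 28.8, 42.3 and 46.4 in MDS 1 to 6. AML 1 and AML 4 were above every MDS library and AML 3 and AML 5 below, so AML mice lay on both sides. The log2 difference was -0.43 ± 0.76 (limma adjusted p = 0.723), and 0.26 without AML 3.

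Some NK cell genes, but not all, were high in AML 1. That library was highest of the 12 for Ncr1, Il2rb and Ccl5, and its NK cell markers other than members summed to 46.9, against 8.71 to 26.6 in the other AML and 9.28 to 31.2 in MDS libraries. Eomes, a T-box factor of NK cells, was at 19.1, against 1.38 to 5.21 in MDS, and Ifng, the cytokine interferon gamma, was at 21.6, against 0.848 to 4.23. Among other NK cell genes in AML 1, Klrd1 at 4.21 was below 5 of the 6 MDS libraries, Klrk1 at 8.63 lay within the MDS range of 4.72 to 15.1, and Nkg7 at 92.8 lay within its MDS range. Gzma at 3.71 and Prf1 at 2.90 in that library lay inside their MDS ranges, and Gzmb at 3.50 lay just above. The heat map of members and marker sums sets these libraries side by side.

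**Figure D2:**
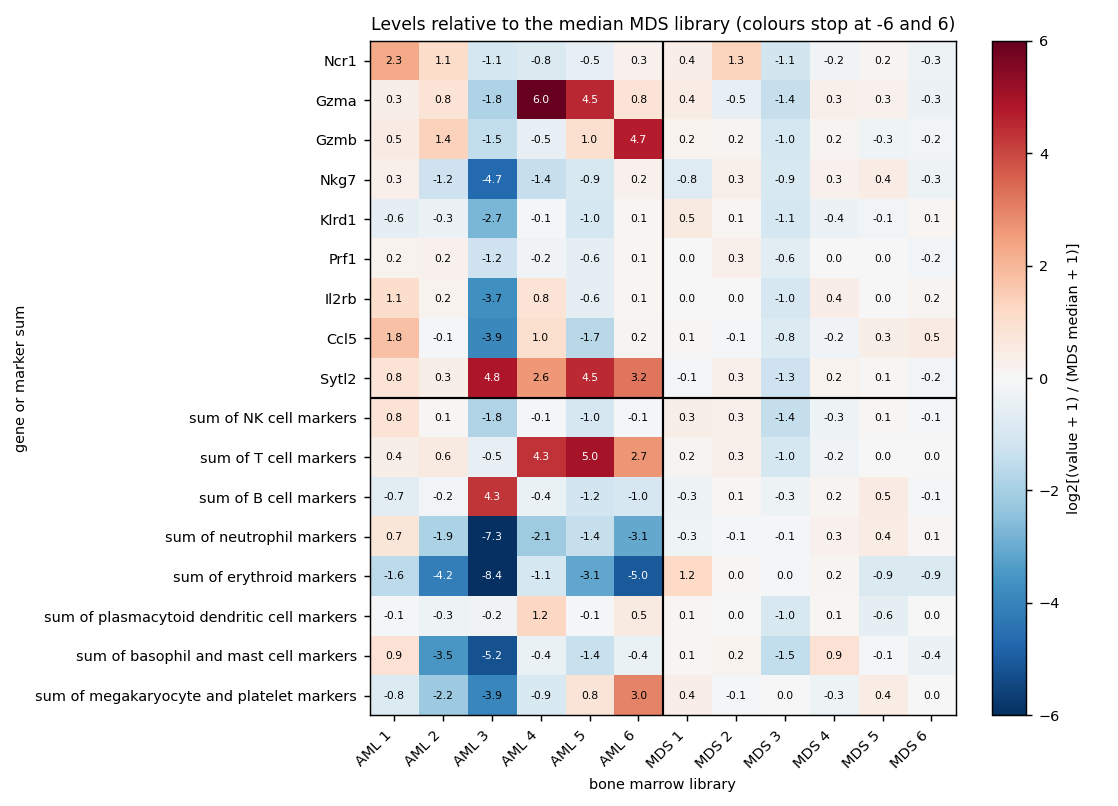
Rows are the 9 genes and the summed markers of 8 cell types, columns the 6 AML and 6 MDS libraries, and each cell is log2[(value + 1) / (MDS median + 1)]; the NK cell sum includes the members Ncr1 and Klrd1. Gzma is high in AML 4 and 5, Gzmb in AML 6, Sytl2 in AML 3 to 6, and AML 3 is low for 7 members beside a high B cell sum.

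Over the 9 members the median log2 difference between AML and MDS was -0.17, beside 0.04 over all genes tested, with 4 positive and 5 negative. Of 6 lists of related genes (granule machinery, NK receptors and adaptors, transcription factors, interleukin signalling, chemokines and trafficking, granzyme inhibitors), 75 genes other than members were tested and 1 passed. That gene was Il2rg, the gamma chain that completes the interleukin-2 and interleukin-15 receptors, at 106 ± 32.8 in AML and 41.6 ± 15.7 in MDS (SD, n = 6 each; log2 difference 1.35 ± 0.29, limma adjusted p = 0.0422, above the highest MDS library in 5 of 6 AML libraries). Its call was lost in 9 alternatives, 8 of which left out a library, with adjusted p between 0.0631 and 0.109 in these.

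Other list genes are given as values only, since none passed. Stx11, a syntaxin needed for granule fusion, averaged 44.7 ± 43.4 in AML and 98.5 ± 18.8 in MDS (limma adjusted p = 0.0811). Fcgr3, the Fc receptor of NK and myeloid cells, averaged 119 ± 127 in AML and 267 ± 53.0 in MDS (adjusted p = 0.131), and Klrk1, the NKG2D receptor, 6.16 ± 4.22 and 11.2 ± 3.71 (adjusted p = 0.188). Cd160, a receptor of NK and intraepithelial T cells, averaged 6.35 ± 4.81 in AML and 2.37 ± 0.982 in MDS (adjusted p = 0.216). Gata3, a T cell and innate lymphoid transcription factor, averaged 45.6 ± 43.6 in AML and 3.16 ± 0.842 in MDS (adjusted p = 0.0735), and Id2, which NK cell development needs, 84.1 ± 49.3 and 203 ± 93.8 (adjusted p = 0.116). Among T cell markers, Lck, the kinase next to the T cell receptor, lay between 17.5 and 592 in AML and between 11.5 and 26.9 in MDS (adjusted p = 0.0695), and 0 of 15 passed. A pair of cytotoxic receptors was picked after their values were seen. Cd226, an activating receptor, was at 219 in AML 4 and at 0.0478 to 4.04 in the other AML libraries, against 1.58 to 4.81 in MDS. Cd96, its inhibitory relative, was at 41.4, 19.4 and 104 in AML 4, 5 and 6 and at 0.143 to 4.22 in AML 1 to 3, against 1.06 to 4.05 in MDS.

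In LSK cells, most members were near the bottom of the table and Nkg7 was near the top. Nkg7 lay between percentiles 98.1 and 99.6 of the genes of each LSK library, while the median percentile of the other members lay between 5.54 (Prf1) and 32.5 (Ccl5). Per kilobase of exon, the median level of Nkg7 was 946, against 11.5 for Ccl5, 3.19 for Gzma, 2.94 for Klrd1, 2.42 for Gzmb, 1.03 for Ncr1, 0.808 for Il2rb and 0.344 for Prf1. Over the 12 libraries, the lowest level of Nkg7 per kilobase (522) was above the highest of Ccl5 (30.9), and from Ccl5 down each gene overlapped in range with its neighbour in this order. In marrow, a table normalised separately, the order of the median per kilobase was Nkg7 (55.4), Ccl5 (34.5), Il2rb (9.41), Klrd1 (4.45), Gzma (3.65), Gzmb (1.78), Ncr1 (0.964), Prf1 (0.928) and Sytl2 (0.199), and here all neighbours overlapped in range.

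No member passed the test in any of the 4 LSK comparisons, in which limma called 3, 3, 2 and 0 of 11730 genes at an adjusted p under 0.05 (0.0256%, 0.0256%, 0.0171% and 0% for transplanted WT against WT, EAP against transplanted WT, EAP with ENU against transplanted WT, and EAP with ENU against EAP). At an unadjusted p under 0.05 these comparisons had 855, 424, 376 and 617 genes (7.29%, 3.61%, 3.21% and 5.26%), among them 4, 5, 0 and 2 of the 8 members. The first 3 comparisons share the transplanted WT libraries and the last reuses the libraries of EAP and of EAP with ENU, so they are not independent. The values by group follow, and they are shown in the plot of member levels by LSK library.

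**Figure D3:**
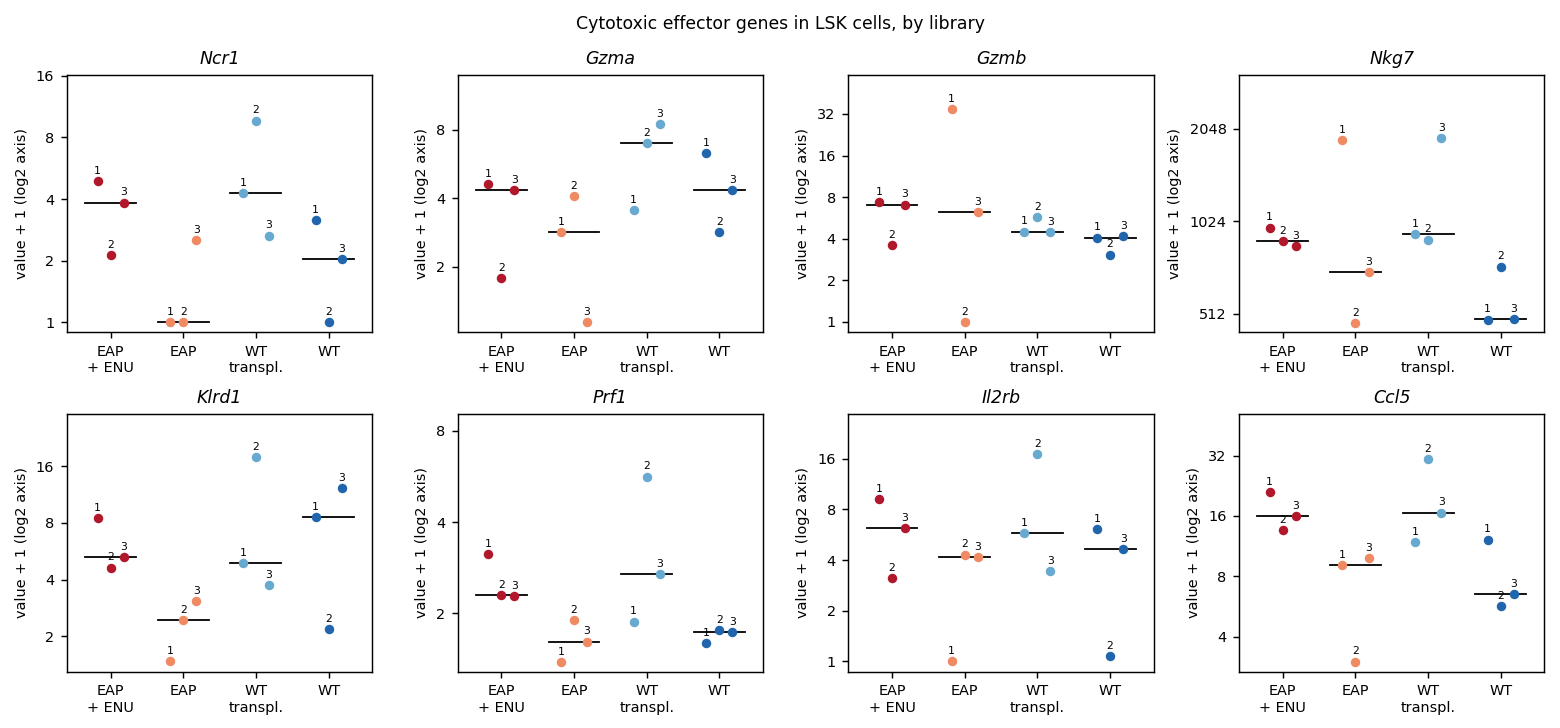
Levels of 8 genes in 3 LSK libraries of each group, from left to right EAP with ENU, EAP, transplanted WT (WT transpl.) and WT, as value + 1 on a log2 axis; numbers are the libraries and lines the group medians. Transplanted WT 2 is the highest of the 12 libraries for Ncr1, Klrd1, Prf1, Il2rb and Ccl5, and Gzmb is high in EAP 1 (33.5).

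Ncr1 was at 3.89, 1.12 and 2.84 in EAP with ENU, listed at 0 in EAP 1 and EAP 2 and at 1.51 in EAP 3, at 3.27, 8.65 and 1.65 in transplanted WT, and at 2.16, 0 and 1.04 in WT cells. All EAP libraries lay below all transplanted WT libraries (log2 difference -1.82 ± 0.59, unadjusted p = 0.00994, limma adjusted p = 1.0), and it was -1.59 without EAP 1 and -1.31 without transplanted WT 2. Klrd1 was at 7.47, 3.63 and 4.28 in EAP with ENU, 0.466, 1.43 and 2.06 in EAP, 3.91, 16.9 and 2.73 in transplanted WT, and 7.55, 1.17 and 11.3 in WT cells. EAP was the lowest group for Klrd1 without overlap with transplanted WT or EAP with ENU, but it overlapped WT through WT 2. Many genes were listed at 0 in EAP 1 (279), EAP 2 (178) and WT 2 (280), against 20 to 85 in the other LSK libraries. All member values of 0 fell in EAP 1, EAP 2 and WT 2. The part of this in the low EAP values was not tested.

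Il2rb was at 8.18, 2.12 and 5.22 in EAP with ENU, 0, 3.31 and 3.16 in EAP, 4.76, 16.1 and 2.43 in transplanted WT, and 5.08, 0.0716 and 3.62 in WT cells. All 4 groups overlapped for this receptor chain. Ccl5 was at 20.1, 12.6 and 15 in EAP with ENU, 8.13, 2.00 and 8.89 in EAP, 10.8, 29.7 and 15.6 in transplanted WT, and 11.2, 4.68 and 5.53 in WT cells. For Ccl5, EAP lay below transplanted WT (log2 difference -1.49 ± 0.51, unadjusted p = 0.0134, limma adjusted p = 1.0) and EAP with ENU lay above EAP (1.36 ± 0.51, unadjusted p = 0.0214, adjusted p = 0.909), in both cases with no overlap.

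Gzma was at 3.60, 0.783 and 3.35 in EAP with ENU, 1.84, 3.07 and 0.135 in EAP, 2.53, 5.99 and 7.42 in transplanted WT, and 5.29, 1.84 and 3.35 in WT cells, and neighbouring groups overlapped. Gzmb was at 6.37, 2.57 and 6.05 in EAP with ENU, 33.5, 0 and 5.23 in EAP, 3.50, 4.71 and 3.44 in transplanted WT, and 3.07, 2.06 and 3.18 in WT cells. EAP held both the highest and the lowest Gzmb library, and EAP 1, the library with the conflicting transplant label, set the direction: the log2 difference of EAP from transplanted WT was 0.30 ± 0.93 with it and -0.96 without it. Prf1 was at 2.13, 1.30 and 1.28 in EAP with ENU, 0.379, 0.900 and 0.615 in EAP, 0.879, 4.66 and 1.69 in transplanted WT, and 0.593, 0.761 and 0.731 in WT cells, with EAP with ENU above EAP and transplanted WT above WT in every library.

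Nkg7, the abundant member, was at 976, 880 and 848 in EAP with ENU, 1879, 477 and 700 in EAP, 930, 891 and 1908 in transplanted WT, and 490, 728 and 493 in WT cells. The 2 highest libraries, EAP 1 and transplanted WT 3, were among the 3 that stood apart. All transplanted WT libraries lay above all WT libraries, with a log2 difference of 1.05 ± 0.47 (unadjusted p = 0.0463, limma adjusted p = 0.672). The same libraries differed in other marker sums, again without overlap. Basophil and mast cell markers (7 of 7) summed to 252 to 971 in transplanted WT and 144 to 155 in WT cells, neutrophil markers (7 of 7) to 2523 to 6450 and 1789 to 1864, and megakaryocyte and platelet markers (6 of 6) to 245 to 254 and 78.8 to 137. LSK defining genes (7 of 7) went the other way, at 2188 to 2305 and 2274 to 3253, overlapping through WT 2. Their log2 differences in transplanted WT against WT were negative for all 7, with a median of -0.51. EAP 1 and transplanted WT 3 also had the highest basophil and mast cell sums of the 12 libraries, 918 and 971, and EAP 1 the highest neutrophil sum, 16240. Mpo was the largest part of the neutrophil sums, averaging 3844 in transplanted WT and 1784 in WT cells and reaching 14566 in EAP. Elane of the same list averaged 499 in transplanted WT and 34.2 in WT cells and reached 1612 in EAP. S100a8 reached 8.65 in transplanted WT, 50.3 in EAP and 4.17 in WT cells, and S100a9 5.68, 7.06 and 1.18. Ngp, Camp and Ltf reached at most 8.56 in transplanted WT, 4.78 in EAP and 2.60 in WT cells. The part of cells with any of these markers in the Nkg7 values was not tested. Without the 3 libraries that stood apart the difference was 0.89 with an adjusted p of 0.0439, in a fit that called 490 genes; this alternative was chosen after the data were seen and leaves 2 libraries in each of these groups.

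Over the tested members, the median log2 difference was 0.95 in transplanted WT against WT, -1.37 in EAP against transplanted WT, -0.29 in EAP with ENU against transplanted WT and 0.88 in EAP with ENU against EAP, beside 0.0, -0.02, 0.01 and 0.03 over all genes. Without EAP 1, the median was -1.17 in EAP against transplanted WT and 0.87 in EAP with ENU against EAP. Without that library, the difference of EAP from transplanted WT was -1.46 for Gzma, -1.34 for Klrd1, -1.74 for Ccl5 and -0.80 for Prf1, and it was -1.01 for Nkg7, against -0.44 with it, and -0.72 for Il2rb, against -1.41 with it. The difference of EAP with ENU from EAP without EAP 1 lay between 0.41 (Il2rb, 1.10 with it) and 1.61 (Ccl5), and it was 0.64 for Nkg7 (0.07 with it) and 1.19 for Gzmb (-0.07 with it). In transplanted WT, Gzmb, Nkg7 and Prf1 were higher than in WT without overlap, as were 7.71% of all genes. In EAP, Ncr1, Klrd1 and Ccl5 were lower than in transplanted WT without overlap, as were 3.18% of all genes. The EAP group holds EAP 1 and EAP 2, with the many genes at 0 given above. In EAP with ENU, Klrd1, Prf1 and Ccl5 were higher than in EAP without overlap, as were 6.68% of all genes, and against transplanted WT every member overlapped, where 9.9% of all genes were higher and 8.61% lower without overlap. The plot of differences and standard errors gives all 41 values.

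**Figure D4:**
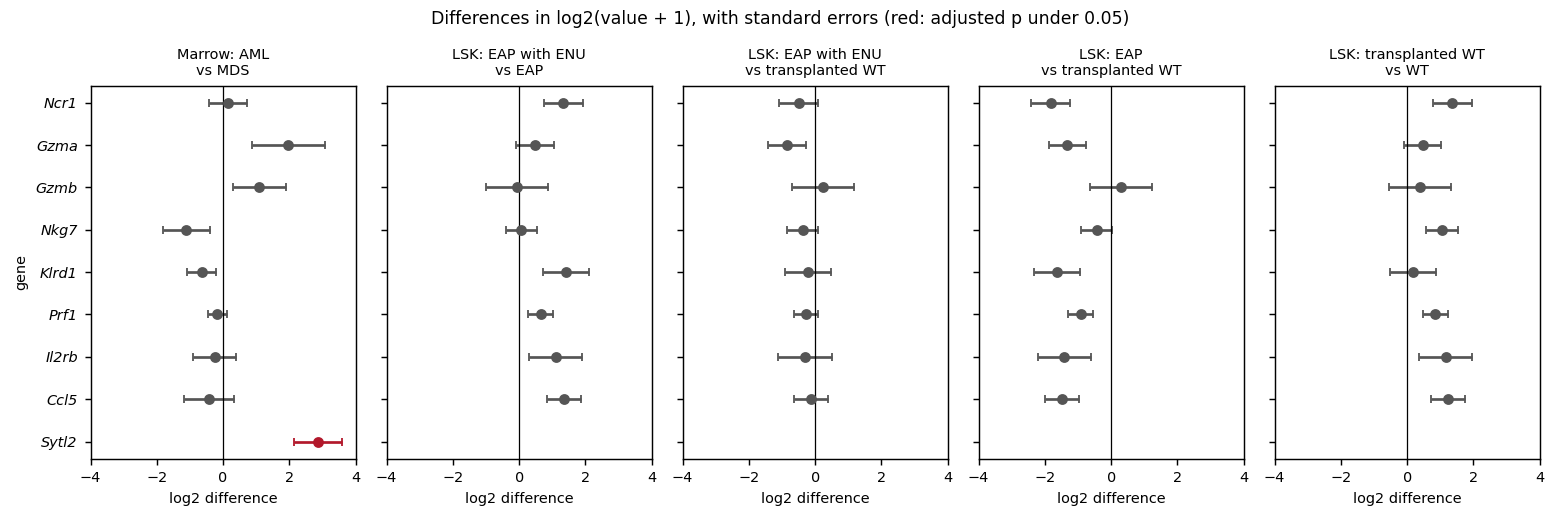
Log2 differences of the members, the first-named group minus the second, with standard errors, in 5 comparisons; red marks an adjusted p under 0.05. Sytl2 in AML against MDS (2.87 ± 0.72) is the 1 red point; Sytl2 was not analysed in LSK cells.

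A single library carried much of the LSK pattern. Transplanted WT 2 was the highest of the 12 libraries for 5 of the 8 members, and held 71.8% of the transplanted WT sum of Klrd1, 69.1% of that of Il2rb and 63.7% of that of Ncr1. Without it, the difference of EAP with ENU from transplanted WT changed sign for Ncr1 (0.02), Klrd1 (0.47), Prf1 (0.18), Il2rb (0.34) and Ccl5 (0.25), and that of transplanted WT from WT changed sign for Klrd1 (-0.52). Without it, the difference of EAP from transplanted WT was negative for 7 of the 8 members, from -1.31 for Ncr1 to -0.48 for Prf1, and 0.42 for Gzmb.

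Markers of mature cells that could be carried into the sort were summed beside the members. NK cell markers (4 of 6 measured, Eomes and Tbx21 not analysed here, and 2 of the 4 being the members Ncr1 and Klrd1) summed to 9.42 to 20.1 in EAP with ENU, 6.21 to 9.55 in EAP, 11.7 to 36.5 in transplanted WT and 5.07 to 16.4 in WT cells. The other 2, Klrb1c and Klrk1, summed to 4.67 to 8.77 in EAP with ENU, 3.27 to 9.09 in EAP, 4.51 to 11 in transplanted WT and 3.90 to 6.29 in WT cells, with Klrb1c at 0 in WT 2. T cell markers (13 of 18 in the table) summed to 64.1 to 108 in EAP with ENU, 68.6 to 136 in EAP, 136 to 228 in transplanted WT and 164 to 212 in WT cells, with Cd3e at 0 in WT 2 and WT 3. In both EAP groups every library but EAP 1 lay below every transplanted WT and WT library in this sum. Lck was its largest part, averaging 52.8 in EAP with ENU, 84.2 in EAP, 127 in transplanted WT and 140 in WT cells. Cd3d, Cd3e, Cd3g, Cd8a, Cd8b1, Cd2 and Zap70 averaged higher in EAP with ENU than in WT cells. For Cd3e the means were 1.63 and 0.0894. Lck, Cd247, Cd4, Tcf7, Cd5 and Cd6 averaged lower in EAP with ENU than in WT cells. Plasmacytoid dendritic cell markers (6 of 6) summed to 543 to 607 in EAP with ENU, 350 to 382 in EAP, 495 to 808 in transplanted WT and 350 to 416 in WT cells. The part of such cells in the member values was not tested.

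Of the 71 genes of the 6 related lists in the LSK table, 0 passed in any comparison. At an unadjusted p under 0.05, limma gave 8 higher and 2 lower in transplanted WT against WT, 0 higher and 4 lower in EAP against transplanted WT, 3 higher and 7 lower in EAP with ENU against transplanted WT, and 4 higher and 1 lower in EAP with ENU against EAP; over all genes the shares, higher and lower, were 3.15% and 4.13%, 1.65% and 1.96%, 1.79% and 1.42%, and 2.98% and 2.28%. Klrc1, the NKG2A partner of Klrd1, averaged 1.64 ± 0.319 in EAP and 5.08 ± 2.39 in transplanted WT (log2 difference -1.12 ± 0.49, limma adjusted p = 1.0). Cxcr3, a chemokine receptor of effector lymphocytes, averaged 2.97 ± 1.88 in EAP and 9.41 ± 3.22 in transplanted WT (-1.44 ± 0.42, adjusted p = 1.0), and 9.41 ± 3.22 in transplanted WT against 2.45 ± 0.681 in WT cells (1.56 ± 0.42, adjusted p = 0.466). Cxcr6, which guides cytotoxic cells to tissue, averaged 2.36 ± 2.23 in EAP and 7.49 ± 2.40 in transplanted WT (adjusted p = 1.0). Ccr2, a chemokine receptor of monocytes and some NK cells, averaged 39.0 ± 19.8 in EAP with ENU and 6.49 ± 0.829 in EAP (2.30 ± 0.38, adjusted p = 0.696). Vamp7 and Ets1 of these lists averaged lower in transplanted WT than in WT cells, opposite to the members. Vamp7 averaged 50.1 ± 10.8 in EAP with ENU, 46.3 ± 29.6 in EAP, 24.6 ± 5.97 in transplanted WT and 49.8 ± 8.86 in WT cells. For Ets1 the means were 12.1 ± 4.36, 22.6 ± 9.33, 25.2 ± 3.79 and 47.9 ± 6.34.

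The genes whose levels were most like the members' were taken by Pearson correlation with the mean of the standardised member levels over the 12 libraries of a table, which share depth and group, and are a description. In LSK cells these were Pltp (r = 0.914), Cox6a2 (0.877), Ly6d (0.853), Siglech (0.850) and Ctss (0.845), of which Siglech and Cox6a2 are markers of plasmacytoid dendritic cells. Transplanted WT 2, the highest library for 5 of the 8 members, was also the highest for Pltp, Cox6a2, Siglech and Ctss. Pltp was at 36.7 there, against a median of 1.55 over the 12 libraries. These correlations were not computed without that library. Siglech averaged 3.98 ± 2.43 in EAP and 35.4 ± 34.4 in transplanted WT (limma adjusted p = 0.727). In marrow these were Fbxw4 (0.948), Ctsw (0.928), Ap4s1 (0.926), Pkp3 (0.916) and Ms4a6b (0.912), of which Ctsw encodes a cathepsin of cytotoxic lymphocytes. Among the marrow members themselves, r with the member mean, which each of them enters, lay between 0.442 (Gzma) and 0.922 (Il2rb) but was -0.226 for Sytl2.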

How the data were processed

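TruSeq stranded mRNA libraries (Illumina) were made from TRIzol RNA, per the labels' protocols. The submitters' processing notes name the mm10 build and, among tools, TopHat and edgeR. The counter, the annotation, the strand setting and the scaling were not given in the sources used here. Per gene, the authors deposited a normalised signal that they call CPM, but library sums differed between libraries, so the test written for CPM was kept on a log scale. Among marrow rows, 155 that repeated another gene's values under an alias and 4 that repeated a name were merged; 99.99 to 100% of values were whole reads within 0.05 read. The stromal table was not used here, and 0 columns belonged to other samples.

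Groups came from the labels. Values were tested as log2(value + 1) with limma 3.58.1 (lmFit, contrasts.fit, eBayes with trend) in R 4.3.3, with Benjamini-Hochberg adjustment over all genes with a value of at least 1 in at least 3 LSK or 6 marrow libraries. Fold changes on this scale understate low genes. One estimate of the spread served all 4 LSK groups. The labels do not tie LSK libraries to separate mice, so their spread may be technical. Positions and exon lengths are from GENCODE M21 (GRCm38), which matched 11327 LSK and 10969 marrow names. All scripts that test many genes were tested on simulated data. For limma these data held only genes with a mean value of at least 5, with the filter off. Lower genes and the filter were therefore not covered. The alternatives were no filter on low values, a pseudocount of 0.1, scaling by median of ratios, the replicate block, the 2 groups alone, exposure-matched AML, each library left out and, added after seeing the data, 3 LSK libraries left out and edgeR 4.0.16 on recovered marrow reads.

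The members and the 14 gene lists were chosen with earlier results of these data known. All members are named; of each list, genes past the threshold (up to 6), or up to 3 with the smallest p, may be named, and markers named for single libraries were chosen after their values were seen. The 5 most alike genes had a mean of at least 5. Tables and figures were made with Python 3.11.15, pandas 2.3.3, numpy 2.4.6 and matplotlib 3.10.9.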

Additional observations from a re-analysis of the deposited data

Results flagged for a closer look

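Gzma in AML 4 was 237, and the gap to the next AML library, AML 5 at 86.5, took 0.635 of the range of the 6 AML libraries, above the 0.625 that marks a sample far from the others in a group of 6. Gzmb in AML 6 was 81.5, and the gap to the next AML library, AML 2 at 7.32, took 0.912 of the range. These were 2 of 18 groups of 6 libraries examined (9 genes in AML and in MDS). Chance marks about 1 in 20 such groups only where values are normally distributed. The rule was applied here to values not on the log scale, and its chance rate for such uneven values was not tested.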

How the results depend on the processing

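Of 544 values of single members under alternatives, 499 kept their direction and their side of the threshold, 31 changed sign, 13 lost the call, all of these for Sytl2, and 1 gained it (Nkg7, above). In AML against MDS, 361 genes passed; the count was 145 with a pseudocount of 0.1, 138 with the replicate block, 0 with exposure-matched AML, 448 with edgeR, and 0 to 2471 with 1 library left out, the highest without AML 1. Sytl2 had an adjusted p of 0.0555 with the smaller pseudocount (log2 difference 3.44), 0.107 with the block and 0.044 with edgeR (4.17). Il2rb and Ccl5 changed sign to 0.53 and 0.39 with exposure-matched AML and to 0.22 and 0.36 with edgeR. With 1 library left out, Ncr1 ran from -0.26 to 0.40, Prf1 from -0.28 to 0.03, Il2rb from -0.54 to 0.41 and Ccl5 from -0.87 to 0.26. In LSK cells, transplanted WT against WT gave 3 genes, 1 with the block, 0 with the 2 groups alone, 490 without the 3 libraries that stood apart and 1 to 5 with 1 left out, the highest without WT 2. EAP against transplanted WT gave 3, 0 with the block or the 2 groups alone, 1 without the 3 libraries and 0 to 1 with 1 left out. EAP with ENU against transplanted WT gave 2, 1 with a pseudocount of 0.1 or the block, 6 with the 2 groups alone or without the 3 libraries, and 0 to 1 with 1 left out. EAP with ENU against EAP gave 0, and 1 without the 3 libraries. Without these 3, Gzma and Klrd1 in transplanted WT against WT changed sign to -0.08 and -0.13, and Gzmb was -1.02 in EAP against transplanted WT and 1.19 in EAP with ENU against EAP; with a pseudocount of 0.1 these were -0.59 and 0.86. With 1 LSK library left out, Klrd1 ran from -0.58 to 0.68 in transplanted WT against WT, Gzmb from -0.96 to 1.60 in EAP against transplanted WT, and in EAP with ENU against transplanted WT Ncr1 from -0.91 to 0.02, Klrd1 from -0.66 to 0.47, Prf1 from -0.62 to 0.18, Il2rb from -0.82 to 0.34 and Ccl5 from -0.44 to 0.25. In EAP with ENU against EAP, Gzma ran from -0.05 to 0.92, Gzmb from -1.36 to 1.19 and Nkg7 from -0.35 to 0.64. Of 14 differences in 13 other genes, Il2rg lost its call as given above, Gata3 and Lck passed with edgeR (adjusted p = 0.044 for both) and without AML 1 or AML 2, and Stx11 and Fcgr3 passed without AML 1. The cause of these changes was not tested. The replicate numbers were not taken as pairs: deviations of same-numbered libraries correlated above 0.1 in 2 of 6 marrow pairs and in at most 1 of 3 LSK pairs, and a library correlated best with its own number in 2 of 6 and 0 of 3. LSK libraries of different numbers did share deviations. Their highest correlations were 0.556 to 0.776 in transplanted WT against WT and in EAP against transplanted WT. They were 0.01 to 0.205 in the comparisons with EAP with ENU, and their source was not tested. Counts of reads limit the low genes: AML 3 had 1 read of Gzma, 3 of Gzmb and 4 of Ncr1.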
